A study of Mus musculus with 6 samples.

Results

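Of 854 genes in the deposited table, 2 carried an interleukin or interleukin-receptor symbol, Il10ra and Il12rb2. Both encode receptor chains. They were taken by name, as every gene whose symbol begins with Il followed by a digit, and the symbols of other interleukins and receptors were not analysed here. The libraries came from OT-I cells, mouse CD8 T cells with a transgenic T-cell receptor for an ovalbumin peptide, enriched as naive cells from spleen and lymph nodes. One group was wild-type (WT). In the other, Themis, which encodes a T-lineage protein acting below the T-cell receptor, was conditionally knocked out (cKO). Both groups had spent 3 days in culture with 1 µg/ml of IL-2, so every value below describes cells already exposed to an interleukin. There were 3 libraries per genotype. The Cre line, the age of the mice and whether replicates came from separate animals are not given in the sources used here, so the spread behind each p-value is that of libraries and could be technical.

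The receptors for IL-10 and IL-12 are built from paired chains that bind Janus kinases (JAKs) and pass the signal to STAT transcription factors. Il10ra encodes the chain that binds IL-10, a cytokine that limits immune responses. With the shared chain encoded by Il10rb it signals through JAK1 and TYK2, mainly to STAT3. Il12rb2 encodes the signalling chain of the IL-12 receptor. With the chain encoded by Il12rb1 it signals through JAK2 and TYK2 to STAT4, and in CD8 T cells IL-12 is known as an inflammatory signal that promotes interferon-gamma production and effector differentiation. IL-2 itself signals through STAT5.

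Il10ra (Gene ID 16154) lies on the minus strand of chromosome 9, positions 45253837 to 45269149 of GRCm38.p6, and its longest coding transcript in GENCODE M21 has 7 exons and 3498 bases. Il12rb2 (Gene ID 16162) lies on the minus strand of chromosome 6. RefSeq places it at positions 67285986 to 67376293, and its longest coding transcript in GENCODE has 16 exons and 2998 bases. Its nearest annotated protein-coding neighbour without overlap is Il23r, another receptor gene, 46744 bases away. Il12rb2 runs into Serbp1, a gene for an RNA-binding protein, on the opposite strand. In GENCODE the pair share 1519 exon bases, which are 40.0% of the 3794 bases in Il12rb2 exons, and in RefSeq the span of Serbp1 ends at 67289302, inside Il12rb2. The shared GENCODE bases lie between 67291318 and 67295311, beyond the RefSeq end of Serbp1, so the 40.0% holds for GENCODE alone. The sources used here do not say whether the authors' counting used strand. Reads from Il12rb2 and from Serbp1 therefore cannot be told apart where the annotation used lets the genes overlap. No other gene is annotated over the exons of Il10ra in GENCODE.

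Because both members are receptors read by JAK-STAT pathways, the upstream sequence of the one found in the RefSeq promoter table, Il12rb2, is shown. The stretch is chr6:67376294-67376438 of GRCm38.p6 on the minus strand, the 145 bases above the outermost annotated start. Capitals mark the single match to the STAT-type GAS motif (TTCNNNGAA, both strands).

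Il12rb2 upstream: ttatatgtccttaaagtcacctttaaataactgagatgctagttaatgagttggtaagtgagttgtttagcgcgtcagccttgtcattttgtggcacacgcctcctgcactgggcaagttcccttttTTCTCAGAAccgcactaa

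Over the full window of 300 bases (250 before and 50 after the start at which the table places the gene), GAS was matched once, and 8.3% of 32851 such windows of all genes hold a match. The ISRE core of interferon-responsive promoters (GAAANNGAAA, in 3.44% of windows), AP-1 (TGANTCA, 7.81%) and the NFAT core (GGAAA, 61.3%) had no match in this window on either strand. These matches describe letters, and binding was not measured.

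Transcripts of both receptor chains were lower in the Themis cKO libraries, by nearly the same factor, if the genotypes are taken at equal depth. Many other listed genes fell by a like factor, as given below. Il12rb2 was 2.01-fold lower and Il10ra 1.99-fold lower, and in neither gene did any cKO library reach the lowest WT library. These directions rest on the depth assumption and turn under scalings that centre the table on itself, as given below. The authors' deposited log2 values were also below 0 for both genes, without a q-value under 0.05. In bulk RNA, fewer cells with a transcript and less of it per cell cannot be told apart.

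Il12rb2 had 10645, 9757 and 13201 read counts in WT replicates 1 to 3 and 5533, 5787 and 5387 in cKO replicates 1 to 3. After scaling within each genotype these were 11239, 9561 and 12631 against 5547, 5667 and 5412. WT replicate 3 was the highest and WT replicate 2 the lowest of the WT libraries, at 13.3% and -14.2% from their mean, whereas the cKO libraries lay between -2.34% and 2.26% from theirs. The means were 11143 ± 1537 scaled counts in WT and 5542 ± 127 in cKO (SD, n = 3 each). In edgeR's quasi-likelihood test the log2 fold change of cKO over WT was -1.01 (standard error 0.10), and p was 5.15e-06 after Benjamini-Hochberg adjustment over all tested genes. The lowest WT library stood 1.69-fold above the highest cKO library. By mean scaled count Il12rb2 ranked 11 of the 854 genes. All 6 of its counts were fractional, that is, some reads were assigned in part.

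Il10ra had 2423, 2423 and 2894 read counts in WT replicates 1 to 3 and 1306, 1305 and 1278 in cKO replicates 1 to 3, whole numbers in all 6 libraries. Scaled, these were 2558, 2374 and 2769 against 1309, 1278 and 1284. The same WT libraries were highest and lowest as for Il12rb2, at 7.86% and -7.51% from the WT mean, and the cKO libraries again lay close together. The means were 2567 ± 197 in WT and 1290 ± 16.5 in cKO (SD, n = 3 each), and the log2 fold change was -0.99 (standard error 0.09; edgeR adjusted p = 4.13e-06). The lowest WT library was 1.81-fold above the highest cKO library. For either gene alone, a two-sided exact permutation test over the libraries gives p = 0.1, the smallest that 3 against 3 allow.

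**Figure D1:**
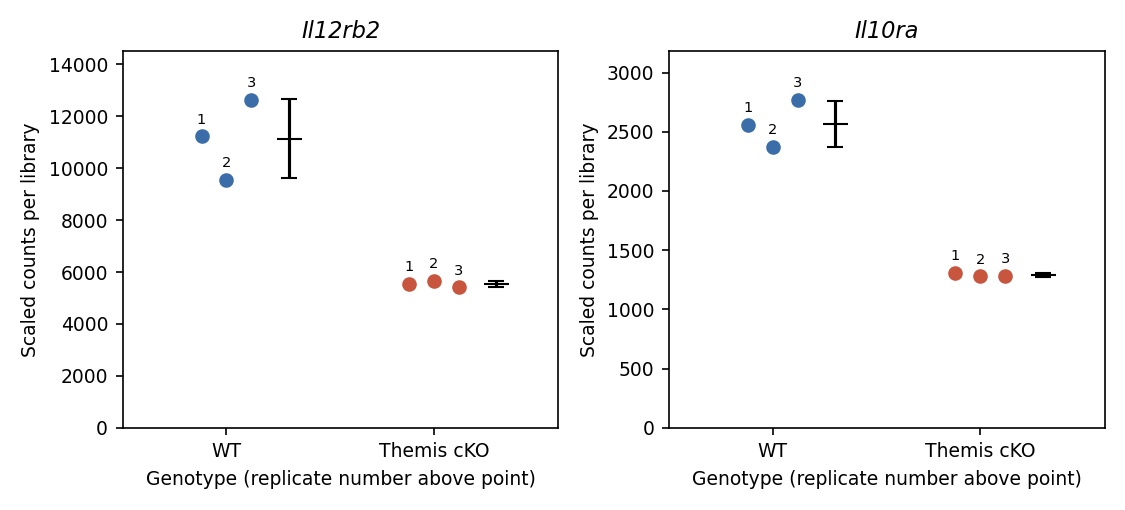
Scaled counts of Il12rb2 (left) and Il10ra (right) in each library by genotype, with the replicate number above each point and the mean ± SD (n = 3) as a black bar; the vertical axes start at 0 and differ between panels. In both panels the 3 cKO libraries lie below the 3 WT libraries, and WT replicate 2 is the lowest WT point.

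Passing the test says little about these 2 genes, because the table appears to have been selected by fold change on the same libraries. Its log2 ratios of mean counts leave the interval from -0.94 to 1.06 empty. Of 794 genes with enough counts to test, 100% passed in either direction and 75.8% were lower in cKO, and genotypes did not overlap, with cKO lower, in 76.0% of all 854 genes. The receptor chains sat just inside the edge of the table. Their log2 ratios of mean unscaled counts were -0.99 for Il10ra and -1.01 for Il12rb2, which placed them 42 and 57 from the smallest fall among 628 lower genes with counts in cKO. A gene lowered by less than that edge would not be listed, so the absence of other receptor chains sets no direction for them.

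The authors' deposited table gave smaller values and no call for either gene. It lists a log2 value of -0.69 for Il10ra, with a p-value of 0.0518 and a q-value of 0.213. For Il12rb2 the authors' deposited table lists -0.58, a p-value of 0.261 and a q-value of 0.593. As in a Wald test, these imply standard errors of 0.36 and 0.52, several times wider than those of the edgeR fit. The authors' values come from another fit, with an implied 16996 genes, so the errors and log2 values of the fits are not like measures. In all, 67.6% of genes in the authors' deposited table have a q-value under 0.05 (55.0% have such a q-value and a lower level in cKO), and so do 65 of the 103 lower genes whose unscaled fall was no more than 0.1 larger, on the log2 scale, than that of Il12rb2. Why these receptor genes are not among them was not tested.

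**Figure D2:**
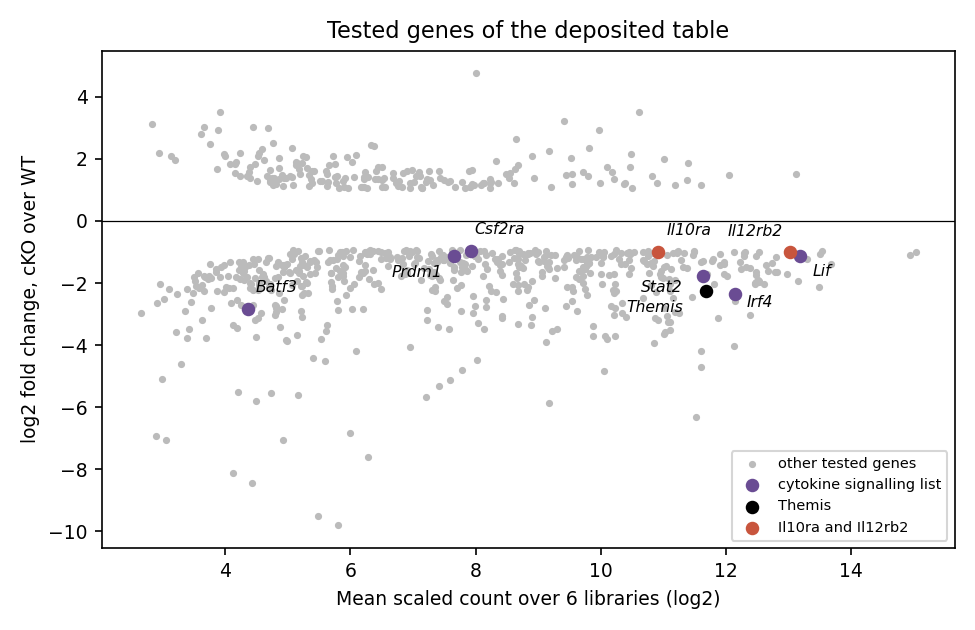
Log2 fold change of cKO over WT (equal depth) against the mean scaled count over 6 libraries (log2 axis) for the 794 tested genes; red points are Il10ra and Il12rb2, purple points the listed cytokine signalling genes, the black point Themis. Il10ra (-0.99) and Il12rb2 (-1.01) lie on the upper rim of the lower cloud, next to the empty interval around 0.

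The deleted gene was checked in every library. Themis had 5503, 5764 and 4948 scaled counts in WT replicates 1 to 3 and 972, 1221 and 1210 in cKO replicates 1 to 3. Its log2 fold change was -2.25 (standard error 0.11; edgeR adjusted p = 5.11e-08), so Themis RNA was lower in every library labelled cKO and was not absent. Counts over the table summed to between 946766 and 1054442 in WT and between 424605 and 437437 in cKO, which are not sequencing depths, since the table holds selected genes.

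How far the receptor chains changed depends on the depth of the genotypes. TMM factors over the table moved the median log2 fold change of all tested genes by 1.30, from -1.34 to -0.04, and split the calls into 28.2% higher and 27.0% lower, against 24.2% and 75.8% at equal depth. Under TMM, Il10ra stood at 0.32 (edgeR adjusted p = 0.0127) and Il12rb2 at 0.30 (adjusted p = 0.0214), both higher in cKO. DESeq2 size factors over the table gave 0.30 and 0.29, with 27.8% of genes called higher and 27.3% lower. In the 10 alternatives at equal depth both genes stayed lower, with adjusted p of 5.42e-19 to 0.000175 for Il10ra and 1.46e-14 to 0.000145 for Il12rb2 (edgeR and DESeq2). At equal depth Il10ra lay 0.35 and Il12rb2 0.34 above the median tested gene on the log2 scale, so both were lowered less than the middle gene of the table.

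**Figure D3:**
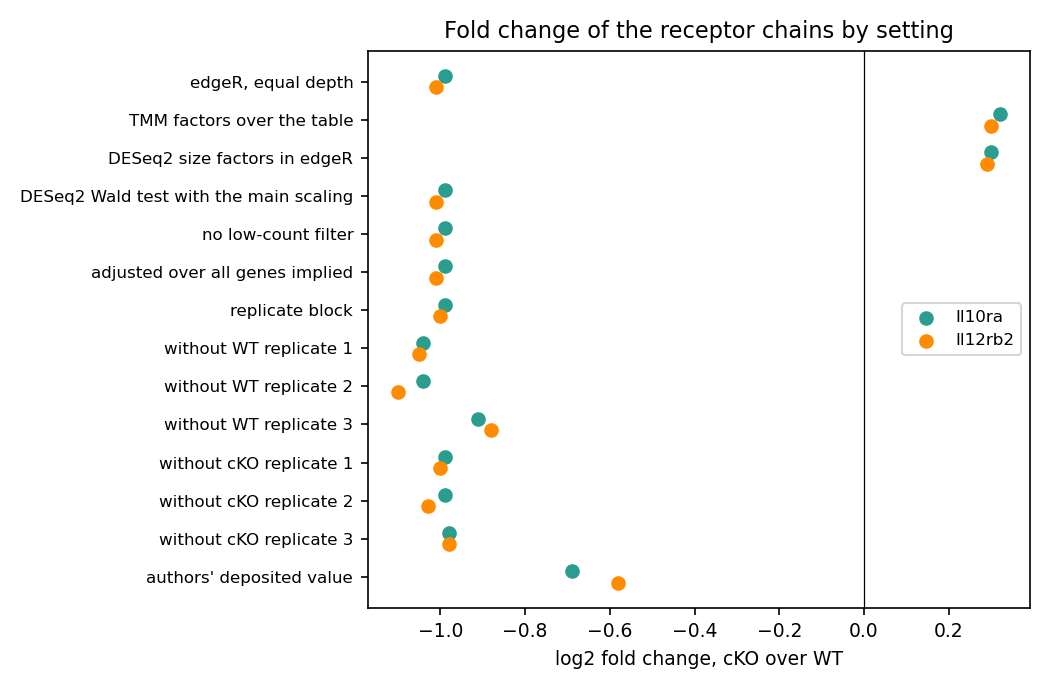
Log2 fold change of cKO over WT for Il10ra (green) and Il12rb2 (orange) under each setting and in the authors' deposited table. Both lie between -1.10 and -0.88 in all fits at equal depth, and at 0.29 to 0.32 under the 2 scalings that centre the table on itself.

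Ratios within a library need no depth, and the ratio of the receptor chains was the same in both genotypes within its spread. Per library, Il12rb2 had 4.39, 4.03 and 4.56 times the counts of Il10ra in WT replicates 1 to 3 and 4.24, 4.43 and 4.22 times in cKO replicates 1 to 3. The genotypes overlapped, with 4.33 ± 0.273 in WT and 4.30 ± 0.121 in cKO (SD, n = 3 each). On the log2 scale the difference was -0.01, and the differences between single cKO and WT libraries ran from -0.11 to 0.14 (two-sided exact permutation p = 1.0). Per kilobase of annotated exon the level of Il12rb2 was 3.99 ± 0.252 times that of Il10ra in WT and 3.96 ± 0.111 times in cKO (SD, n = 3 each). This comparison of levels includes any Serbp1 reads counted for Il12rb2. Among genes lower in cKO, 103 had an unscaled fall no more than 0.1 larger, on the log2 scale, than that of Il12rb2. A near-equal fall is therefore not particular to the receptor chains.

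Of 71 listed genes of cytokine signalling with other symbols (JAKs, STATs, their inhibitors, related cytokines and receptors, adaptors of the IL-1 receptor family and transcription factors of cytokine genes), 6 were in the table. At equal depth all 6 were called lower and 0 higher, in a table where 75.8% of tested genes were, with a median log2 fold change of -1.45. The median was -1.34 over all tested genes and -1.64 over the tested genes that were lower. They include no JAK, and Stat2 was the single STAT. Stat3, Stat4 and the Stat5 genes were on the list but not in the table, so they have no values here. The authors' deposited table gives 4 of the 6 a q-value under 0.05, and not Lif (0.589) or Prdm1 (0.137).

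Among ligands and receptors, Lif, an IL-6 family cytokine, had 13166, 11740 and 13101 scaled counts in WT and 6159, 6108 and 5288 in cKO, a log2 fold change of -1.11 (edgeR adjusted p = 6.87e-07). Csf2ra, the binding chain of the GM-CSF receptor, had 311, 406 and 246 scaled counts in WT and 181, 159 and 151 in cKO, a log2 fold change of -0.97 (edgeR adjusted p = 0.000786). In both genes all WT libraries exceeded all cKO libraries, with less room in Csf2ra, where the lowest WT library was 1.36-fold above the highest cKO library. Lif, Csf2ra and Prdm1 turned sign under TMM, to 0.20, 0.34 and 0.17 (edgeR adjusted p = 0.0589, 0.171 and 0.478).

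Stat2, the STAT of the type I interferon receptor, had 4695, 4953 and 5077 scaled counts in WT and 1551, 1483 and 1321 in cKO, a log2 fold change of -1.76 (edgeR adjusted p = 5.56e-08). Irf4, a transcription factor induced by T-cell receptor signals, had 6747, 7963 and 7910 scaled counts in WT and 1298, 1561 and 1527 in cKO, a log2 fold change of -2.37 (edgeR adjusted p = 2.61e-08). In both genes all WT libraries lay well above all cKO libraries at equal depth. Under TMM, Stat2, Irf4, Batf3 and Themis stayed lower but by less, at -0.45, -1.06, -1.53 and -0.94 (edgeR adjusted p = 0.00148, 1.2e-05, 0.00915 and 3.58e-05). Batf3, a bZIP transcription factor, stood at 36.0 ± 7.66 scaled counts in WT and 4.98 ± 2.67 in cKO, (SD, n = 3 each), and was counted in single digits in every cKO library. Prdm1, which encodes the repressor Blimp-1 of effector T cells, had 282, 225 and 327 scaled counts in WT and 126, 105 and 147 in cKO, a log2 fold change of -1.14 (edgeR adjusted p = 0.000231).

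Set against both receptor chains within each library, 4 of these genes were lower in every cKO library than in any WT library, as were 46.0% of the 852 table genes besides the receptor chains (46.0% against Il12rb2 alone and 48.5% against Il10ra alone). The receptor chains lie near the smallest falls of the table, so such ratios are common and are given as values of these genes. The ratio of Irf4 to Il12rb2 was 0.600, 0.833 and 0.626 in WT and 0.234, 0.275 and 0.282 in cKO, a log2 difference of -1.37. The log2 difference of the ratio to Il12rb2 was -1.96 for Batf3, -1.26 for Themis and -0.76 for Stat2, and the ratios to Il10ra gave -1.38 for Irf4, -1.97 for Batf3, -1.27 for Themis and -0.77 for Stat2. In these 8 ratios the genotypes did not overlap, at p = 0.1, the smallest the exact permutation test allows here (0.188 after Benjamini-Hochberg adjustment over 15 ratios). For Lif, Prdm1 and Csf2ra the ratios overlapped between genotypes. Their log2 differences relative to Il12rb2 were -0.12, -0.14 and 0.05, and those between single libraries ran from -0.33 to 0.10, -0.49 to 0.20 and -0.61 to 0.75. The ratios were chosen after the values had been seen, none passes the adjusted threshold, and a ratio cannot show that any gene stayed level.

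**Figure D4:**
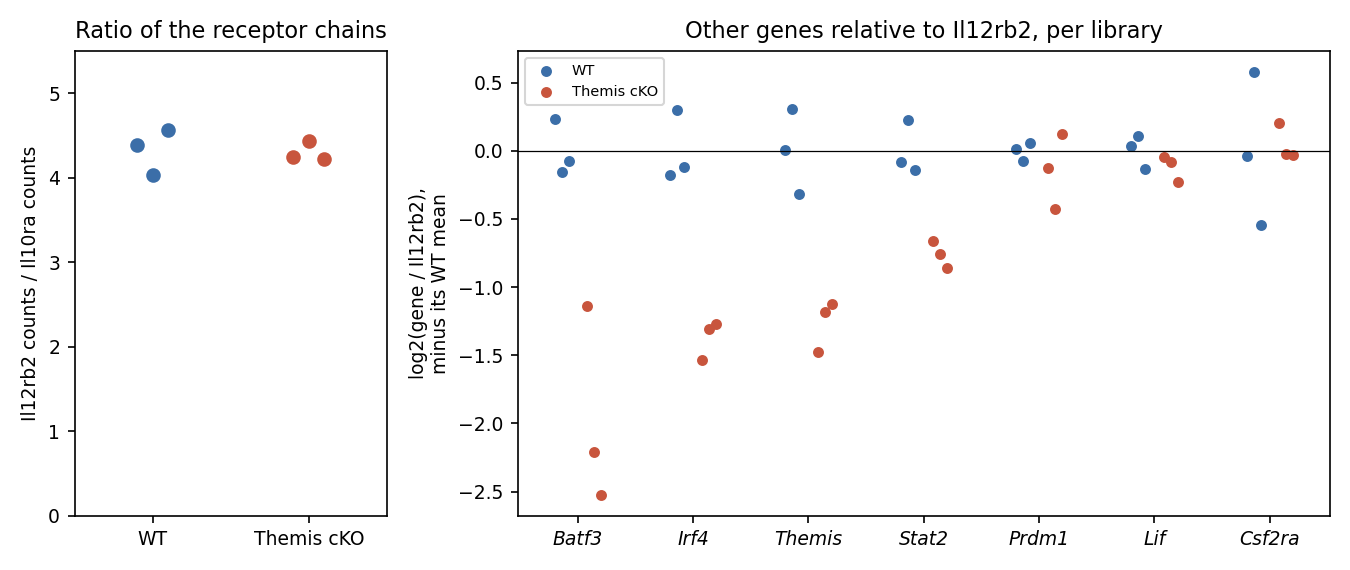
Left, counts of Il12rb2 divided by counts of Il10ra in each library, which lie between 4.03 and 4.56 in both genotypes. Right, log2 ratio of each other gene to Il12rb2 per library, minus that gene's WT mean; for Batf3, Irf4, Themis and Stat2 all cKO points (red) lie below all WT points (blue), and for Prdm1, Lif and Csf2ra the colours overlap.

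Genes with a pattern like that of the receptor chains were many. The genes nearest to Il12rb2, by Pearson correlation of log2(scaled count + 1) over the 6 libraries, were Mxd1 (0.996), an antagonist of MYC, Slc7a11 (0.995), a cystine transporter, and Tnfrsf9 (0.994), the 4-1BB costimulatory receptor. Tnfrsf9, for example, had 5613, 4947 and 6148 scaled counts in WT and 2003, 2132 and 2084 in cKO, with the same WT library lowest. The same measure, applied to Il10ra as an addition after the data were seen, gave Tlr7 (0.9996), Gm8369 (0.9995) and Adprm (0.999). Tlr7, an endosomal sensor of single-stranded RNA, had 1223, 1012 and 1475 scaled counts in WT and 269, 248 and 268 in cKO. Il10ra ranked 5 among 793 genes for likeness to Il12rb2, and Il12rb2 ranked 52 for likeness to Il10ra. The points share their libraries and the 2-group split, and 331 and 414 of the 793 genes had a correlation above 0.95 with Il12rb2 and Il10ra, so a high value is common here.

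Il10ra and Il12rb2 are also expressed outside CD8 T cells, the first in myeloid, B and NK cells and the second in NK cells. Of 5 NK cell markers listed, 4 were in the table (Ncr1, Klrb1c, Tyrobp and Klra8) and all 4 were higher in cKO, with summed scaled counts of 289 to 447 in WT and 751 to 1290 in cKO. At equal depth 24.2% of all tested genes were called higher in cKO. The B cell markers Ms4a1 and Cd79b were both higher, with summed scaled counts of 49.0 to 72.7 in WT and 83.2 to 229 in cKO. Of 13 myeloid and dendritic markers 2 were in the table, Mpeg1 lower and Itgax higher in cKO. Their sum was 385 to 491 in WT and 163 to 270 in cKO. Itgax alone had 47.2 to 73.8 scaled counts in WT and 101 to 226 in cKO, so the lower sum came from Mpeg1. The 2 markers give no common direction for myeloid cells. Within WT, replicate 2 had the lowest and replicate 3 the highest sum of the myeloid markers, of the NK markers and of Ms4a1 and Cd79b. The gamma-delta sum, Ikzf2 and Cpa3, given below, did not follow this order. From the list of 5 genes marking CD4 and regulatory T cells, Ikzf2 was in the table, at 303 to 320 in WT and 87.2 to 204 in cKO. The gamma-delta list of 5 genes had Blk and Sox13 in the table, whose sums were 29.4 to 57.0 in WT and 76.2 to 165 in cKO. Of 5 mast cell and basophil markers Cpa3 was in the table, at 0 in 2 WT libraries and at most 19.6 scaled counts in cKO. Each of the other markers in the table had counts in all 6 libraries. None of the 8 CD8 T cell markers listed was in the table, so the labelled cell type could not be checked here. The part of other cells in the values of Il10ra and Il12rb2 was not tested.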

How the data were processed

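The table the authors deposited covers 854 genes and gives each library's read count, an estimated count, since 66.1% of values are whole. Per the file headers it also holds the authors' log2 fold change, p-value and q-value. Tools named in the submitters' processing notes, without role or order, were RSEM 1.2.12, HISAT2 2.0.4, DESeq2 1.4.5 and Bowtie2 2.2.5, with the build GRCm38.p6. Genotypes come from the sample labels. Counts were rounded and fitted over the whole table with edgeR 4.0.16 (quasi-likelihood, genotype as the only term, R 4.3.3) for the 794 genes passing its expression filter at a smallest count of 10; 60 were not tested. Libraries were scaled by median-of-ratios within each genotype (factors 0.947 to 1.05) and both genotypes held at equal depth, since the fold-selected table breaks TMM. Genes were called at a Benjamini-Hochberg adjusted p under 0.05; standard errors were the fold change over the root of F. Depth per library is unknown.

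On simulated data for cKO against WT (783 genes) the fit called 94.5% of 91 genes changed 2-fold, 98.9% of 89 changed 4-fold and 6 of 603 unchanged. The simulation held depth equal, gave every gene the same dispersion and left most genes unchanged. The deposited table differs in this, so these rates check the running of the fit and not the calls. Replicate pairs differed beyond sampling noise (chi-square per degree of freedom 6.34 to 19.7). Named genes are every Il symbol, Themis, the cytokine signalling genes in the table (the rule named the 4 with the smallest p each way; Csf2ra and Prdm1 were added after their values were seen) and the 3 genes most like Il12rb2. One marker result is not reported here. Members and lists were chosen with earlier results of these data known. Alternatives were TMM, DESeq2 1.42.0 size factors, DESeq2's Wald test, no filter, adjustment over 16996 genes (the number implied by the ratio of deposited p-value to q-value), each library left out, and a replicate block. Lengths and overlaps are from GENCODE M21; the promoter is from RefSeq on GRCm38.p6, found for 1 of 2 members. Other software was scipy 1.17.1, numpy 2.4.6, pandas 2.3.3 and matplotlib 3.10.9 under Python 3.11.15.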

Additional observations from a re-analysis of the deposited data

How the results depend on the processing

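The direction in these fits depended on the scaling. With TMM factors over the table, and with DESeq2 size factors over the table, 2 of the 2 receptor genes were called higher and 0 lower, and 3 of 6 cytokine signalling genes were called lower. Log2 fold changes that turned sign under TMM were 0.32 for Il10ra, 0.30 for Il12rb2, 0.34 for Csf2ra, 0.20 for Lif and 0.17 for Prdm1. Under DESeq2 size factors they were 0.30, 0.29, 0.32, 0.18 and 0.15. Both scalings assume that most genes are unchanged, an assumption broken by a fold-selected table, and whole-library totals were not used here. The authors' deposited log2 values for these genes were all below 0, the sign found at equal depth. In the same order they were -0.69, -0.58, -0.78, -0.66 and -0.88, and only Csf2ra had a q-value under 0.05. For Themis the authors' deposited log2 value was -2.25, against -2.25 at equal depth and -0.94 under TMM. DESeq2's Wald test at equal depth, no low-count filter, adjustment over 16996 genes, the replicate block and each library left out kept the direction and call of Il10ra, Il12rb2, Themis and the 6 signalling genes. Leaving out each library gave log2 fold changes of -1.04 to -0.91 for Il10ra and -1.10 to -0.88 for Il12rb2. The replicate block called 2 receptor genes and 6 signalling genes lower, as without it. Same-numbered libraries did not deviate together over the tested genes (correlations of -0.063, -0.0545 and -0.155). These correlations cannot show whether same-numbered libraries shared an origin. Unknown total depth and the strand of the reads over Serbp1 limit what the counts of Il12rb2 can show.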
